A study of Homo sapiens with 12 samples.

Results

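The comparison described here is that of fusicoccin A (FC-A) alone with its solvent DMSO, each applied for 6 h to OVCAR-3, a long-established line from a human ovarian adenocarcinoma that the labels call epithelial and of genotype wt. It rests on 6 of the 12 poly(A) RNA-seq libraries of the study, 3 from DMSO-treated and 3 from FC-A-treated cells. The other 6 libraries, 3 from cells given interferon alpha (IFNa) for 6 h and 3 from cells given FC-A and IFNa together for 6 h (the Combination), enter the estimate of the spread and a second FC-A comparison. A gene was tested where its normalized reads averaged 10 or more across the 12 libraries, and 15990 of the 28035 genes in the deposited table were. No dose is given in the labels, and whether the 3 libraries of a group were grown as separate cultures is not said. The p-values therefore reflect no more than the spread among these libraries, which are numbered below by their replicate number. RP3-323P13.2 and IRX5, with means of 9.99 and 9.998, fell just outside that minimum, and BATF and AC104654.2, with means of 10.004 and 10.005, just inside it.

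FC-A is a diterpene glycoside made by a fungus. It fills a gap at the interface between a 14-3-3 protein and its bound partner and so stabilizes the complex. The 14-3-3 proteins are adaptors that hold partners through phosphorylated serine or threonine. Their many partners include FOXO factors, YAP, the CREB coactivators CRTC1 to CRTC3, RAF kinases and the BCL2-family protein BAD, whose location or activity changes while they are held. Several of these partners act on transcription, and lists of their target genes are among the gene lists used below.

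The cells carried the markers of their label. All 15 ovarian epithelial markers passed the minimum, among them PAX8, EPCAM and the keratin KRT7, and none passed the threshold for FC-A. Their summed level was 460917 to 475682 normalized reads in the DMSO libraries and 426261 to 504500 in the FC-A libraries. Of the fibroblast, leukocyte and endothelial markers, 3 of 8, 3 of 8 and 3 of 6 passed the minimum, none of those tested passed the threshold, and the fibroblast proteoglycan gene DCN was at 0 in all 6 libraries. The summed fibroblast markers were 1086 to 1149 in the DMSO libraries and 1246 to 1285 in the FC-A libraries, carried mainly by the collagen gene COL1A1 (845, 768 and 830.5 against 945, 909 and 999.7), and their part in any result below was not tested. Sequencing depth did not separate the groups, with 33804968 to 35917611 reads in genes in the DMSO libraries and 33378755 to 36733119 in the FC-A libraries.

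Few transcripts passed the threshold for FC-A alone, and their changes were mostly small. At an unadjusted p below 0.05 (limma) there were 1376 of the 15990 genes. A gene that did not pass is not shown to be unchanged. At an adjusted p below 0.05 (limma, over all 15990 genes), 48 genes passed, or 0.3% of those tested. Of these, 25 rose (0.156%) and 23 fell (0.144%). The rises had a median size of 0.37 on the log2 scale and the falls a median size of 0.51, and the smallest change that passed was 1.18-fold. In these bulk samples fewer cells that hold a transcript and less of it per cell cannot be told apart. HIST1H3D, CPA4 and FAM65B were the 3 of these genes that moved at least 2-fold. In all 48 the 3 FC-A libraries lay wholly outside the range of the 3 DMSO libraries, a separation that 15.2% of all tested genes also showed. The genes that rose included enzymes and regulators of cholesterol and fatty acid synthesis, and those that fell included secreted proteases, scaffold and adhesion proteins, squamous epithelial proteins and cytokine receptors.

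**Figure D1:**
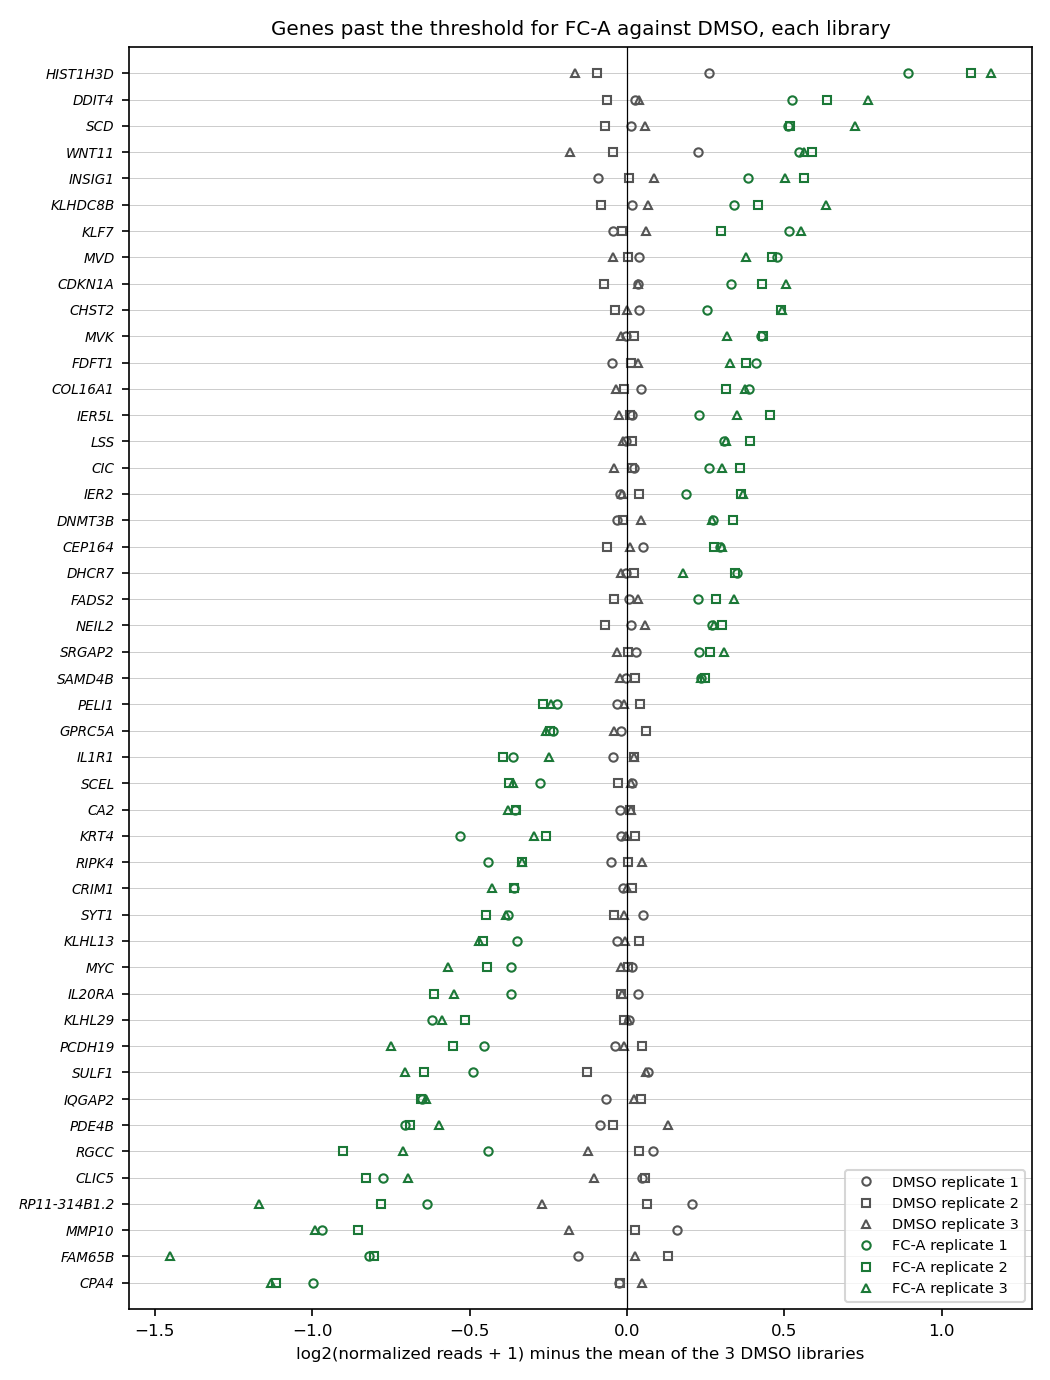
Each row is 1 of 47 of the 48 genes past the threshold, and the horizontal axis gives log2(normalized reads + 1) of each library minus the mean of the 3 DMSO libraries (grey, DMSO; green, FC-A; circle, square and triangle for replicates 1, 2 and 3). Green and grey symbols do not overlap in any row; the FC-A libraries of CPA4 lie near -1 and those of SAMD4B near 0.24.

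The number of calls depended on single libraries and on the tool. Without 1 library at a time it ran from 16, without DMSO replicate 2, to 119, without FC-A replicate 1. It was 17 without DMSO replicate 1, 18 without DMSO replicate 3, 19 without FC-A replicate 2, 26 without IFNa replicate 1 and 85 without IFNa replicate 3. With replicate 3 of every group left out it was 134, among them 47 of the 48. edgeR's quasi-likelihood test on the recovered reads called 48 genes, 46 of them shared, and DESeq2 called 171, 47 of them shared. In every one of the 24 alternative fits 12 genes passed: CPA4, KLHL29, IQGAP2, CA2, FDFT1, MVD, MMP10, RIPK4, SCD, KLHL13, INSIG1 and PDE4B. Where losses are given for a gene below, the libraries and the highest adjusted p refer to fits that each left out 1 library. Losses in other fits are named only for some genes. Of the 48, 16 passed without the variance trend and 22 in a fit of the compared libraries alone.

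Genes of cholesterol and fatty acid supply made up 9 of the 25 rises. Cholesterol is built from acetyl-CoA through mevalonate, squalene and lanosterol, and the factor SREBP2 drives these enzymes when membrane sterol is low, while SREBP1 drives fatty acid synthesis. Over 4 lists of such genes, 50 were tested. The lists were chosen with earlier results of these data known, so the counts describe these genes and are not a test. Of the 50, 9 rose, where 0.156% of all tested genes rose, and none fell. A positive log2 fold change was found in 42 (84%), against 48.4% of all tested genes. The median log2 fold change of the 50 was 0.15, and that of all tested genes was -0.005. The 3 FC-A libraries lay above all 3 DMSO libraries in 27 of the 50, a separation that 7.81% of all tested genes showed in that direction, and below them in none of the 50, against 7.44%. The count of 9 was 4 without DMSO replicate 1 or without FC-A replicate 2, 5 without DMSO replicate 3, 6 without DMSO replicate 2 or IFNa replicate 1, and 13 without replicate 3 of every group. Other settings gave 4 without the variance trend, 6 in a fit of the 6 compared libraries alone, 16 with DESeq2 and 18 with the replicate number as a block.

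Among the 11 enzymes from acetyl-CoA to squalene epoxide, 3 rose, none fell, and the median log2 fold change was 0.20. MVD, which decarboxylates mevalonate diphosphate to the first isoprene unit, had 938, 915 and 886 normalized reads in DMSO replicates 1 to 3 and 1269, 1257 and 1186 in FC-A replicates 1 to 3 (log2 fold change 0.44 ± 0.05 SE, adjusted p = 0.00231). FDFT1, squalene synthase and the first enzyme given over to sterols, had 4306, 4489.9 and 4554 reads in DMSO and 5912, 5776 and 5582 in FC-A (log2 fold change 0.37 ± 0.04 SE, adjusted p = 0.00231). For MVK, mevalonate kinase, the DMSO libraries held 639, 651 and 632 reads and the FC-A libraries 861, 864 and 798 (log2 fold change 0.39 ± 0.07 SE, adjusted p = 0.0342). The 3 enzymes were 1.35-fold, 1.29-fold and 1.31-fold higher with FC-A, and in each gene the gap between the groups was wider than the spread within either. MVD and FDFT1 passed in every alternative fit; MVK did not pass without DMSO library 1, 2 or 3, FC-A library 1 or 2, or IFNa library 1 (highest adjusted p 0.175). HMGCS1, which makes the precursor of mevalonate, was at 6729.9, 7074 and 7569.6 in DMSO and 8327, 8949.8 and 9221 in FC-A (0.31 ± 0.07 on the log2 scale, adjusted p = 0.0904), and SQLE, squalene epoxidase, at 2477, 2609 and 2571 against 3070.3, 2998 and 2726 (adjusted p = 0.17).

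In the 10 enzymes from lanosterol to cholesterol, 2 rose, none fell and the median log2 fold change was 0.09. LSS, which closes the sterol rings to form lanosterol, gave 3683, 3730.3 and 3662 reads in DMSO against 4571, 4842 and 4590.3 in FC-A (log2 fold change 0.34 ± 0.05 SE, adjusted p = 0.00659). DHCR7, which makes cholesterol from 7-dehydrocholesterol, gave 2335, 2374 and 2308 against 2979, 2965 and 2648 (log2 fold change 0.29 ± 0.05 SE, adjusted p = 0.0296). LSS was 1.26-fold and DHCR7 1.22-fold higher, and FC-A replicate 3 was the lowest FC-A library for DHCR7. The call on LSS was lost without DMSO library 1 or 3, or FC-A library 2 (highest adjusted p 0.0571), and that on DHCR7 without DMSO library 1, 2 or 3, FC-A library 2, or IFNa library 1 (highest adjusted p 0.161). CYP51A1, lanosterol demethylase, held few reads (87.1, 71.8 and 73.4 against 102, 92.7 and 101) and did not pass, at 0.35 ± 0.14 and an adjusted p of 0.471.

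Of 12 tested genes of sterol sensing and uptake, 2 rose and none fell, with a median log2 fold change of 0.08. INSIG1, which holds the SREBP escort protein in the endoplasmic reticulum, had 801, 857 and 907 reads in DMSO and 1115, 1263 and 1209 in FC-A (log2 fold change 0.48 ± 0.06 SE, adjusted p = 0.00431). The lowest FC-A library of INSIG1 was replicate 1, and it still lay above every DMSO library. The call on INSIG1 held in every alternative fit. Below the threshold were SREBF2, the gene of SREBP2 (6887, 6854 and 7068 against 7718, 8383 and 8506, log2 fold change 0.24 ± 0.05, adjusted p = 0.0588), and the sterol carrier STARD4 (424, 410.4 and 465 against 554, 501 and 593, 0.34 ± 0.07, adjusted p = 0.0727).

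Fatty acid synthesis and desaturation gave 2 rises and no fall among 17 tested genes, with a median log2 fold change of 0.18. SCD, the desaturase that makes oleate, had 11524, 10893 and 11896 reads in DMSO and 16281, 16363 and 18874 in FC-A (log2 fold change 0.58 ± 0.07 SE, adjusted p = 0.00236), a 1.499-fold difference that passed in every alternative fit. FADS2, the delta-6 desaturase of polyunsaturated fatty acids, had 2351, 2274 and 2395 against 2734, 2849 and 2964 (log2 fold change 0.28 ± 0.05 SE, adjusted p = 0.0437). The 2 desaturases differed in how firmly they passed, since FADS2 was lost without DMSO library 1, 2 or 3, FC-A library 2 or 3, IFNa library 1 or 2, or Combination library 1 or 2 (highest adjusted p 0.254). FASN, fatty acid synthase, was at 34343, 35636 and 36239.7 against 39308, 46067 and 47887 (0.32 ± 0.07, adjusted p = 0.0606), and FADS1, the delta-5 desaturase, at 3639, 3364 and 3743 against 4274, 3972 and 4248 (adjusted p = 0.131). The 8 targets of LXR, the receptor that answers high sterol, showed no call in either direction and a median of -0.02.

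**Figure D2:**
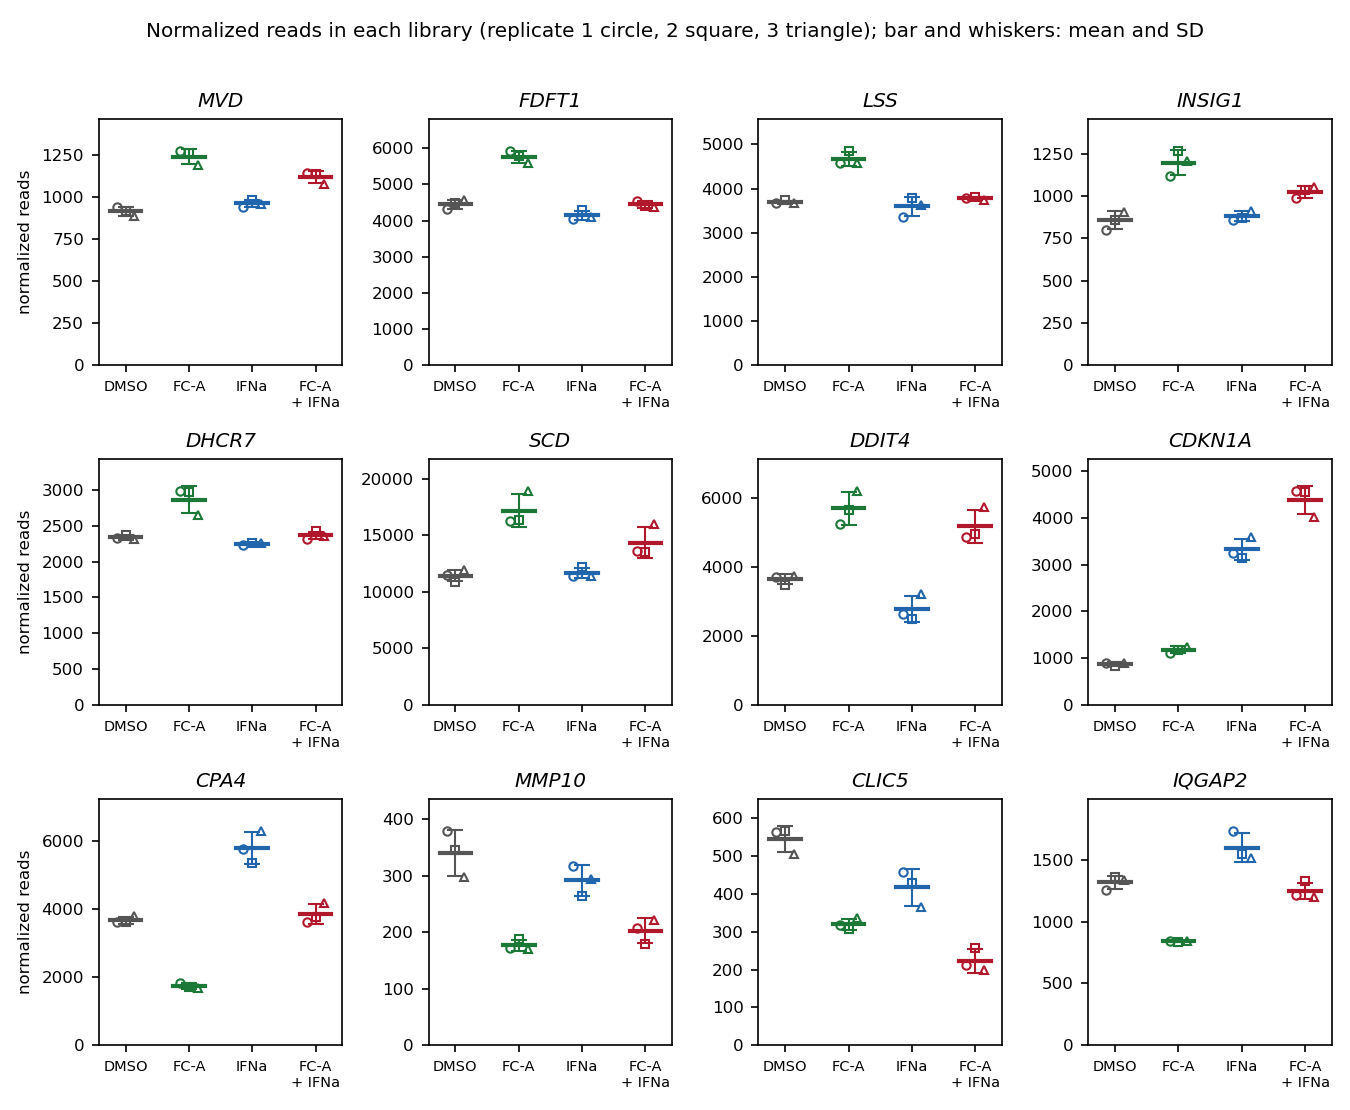
Normalized reads (vertical axis, from 0) of 12 genes in each library of the 4 groups; symbols are replicates 1, 2 and 3, the wide bar is the group mean and the whiskers 1 SD over 3 libraries. MVD, FDFT1, LSS, INSIG1, DHCR7, SCD, DDIT4 and CDKN1A are higher in FC-A than in DMSO, and CPA4, MMP10, CLIC5 and IQGAP2 lower; for LSS the IFNa and Combination groups overlap.

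The sequences just before the starts of the sterol and fatty acid genes are shown because 9 of these genes rose and none fell. They are the 250 bases upstream of the start given by RefSeq on GRCh38.p14, read in the direction of transcription, for the 4 genes of those lists with the smallest p among those with an entry. Capitals mark the letters CCAAT, or their reverse complement on the other strand, the core bound by NF-Y, a factor known to act beside SREBP. MVD lies at chr16:88663092-88663341, minus strand, SCD at chr10:100346983-100347232, plus strand, INSIG1 at chr7:155297628-155297877, plus strand and LSS at chr21:46228775-46229024, minus strand.
MVD: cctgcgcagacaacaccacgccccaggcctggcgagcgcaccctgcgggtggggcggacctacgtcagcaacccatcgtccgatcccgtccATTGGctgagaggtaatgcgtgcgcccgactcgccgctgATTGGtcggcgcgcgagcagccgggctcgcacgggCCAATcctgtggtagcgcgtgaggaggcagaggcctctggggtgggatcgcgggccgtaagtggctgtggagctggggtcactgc
SCD: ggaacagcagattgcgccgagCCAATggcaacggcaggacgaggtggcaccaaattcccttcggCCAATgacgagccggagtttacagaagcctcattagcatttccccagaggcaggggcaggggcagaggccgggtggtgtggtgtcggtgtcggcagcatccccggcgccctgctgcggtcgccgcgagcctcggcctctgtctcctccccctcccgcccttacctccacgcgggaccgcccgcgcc
INSIG1: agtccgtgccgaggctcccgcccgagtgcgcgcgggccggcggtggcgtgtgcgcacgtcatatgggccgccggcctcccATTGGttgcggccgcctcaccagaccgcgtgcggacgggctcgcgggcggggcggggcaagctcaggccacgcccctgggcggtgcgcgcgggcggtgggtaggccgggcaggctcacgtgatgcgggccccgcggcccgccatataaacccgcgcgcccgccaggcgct
LSS: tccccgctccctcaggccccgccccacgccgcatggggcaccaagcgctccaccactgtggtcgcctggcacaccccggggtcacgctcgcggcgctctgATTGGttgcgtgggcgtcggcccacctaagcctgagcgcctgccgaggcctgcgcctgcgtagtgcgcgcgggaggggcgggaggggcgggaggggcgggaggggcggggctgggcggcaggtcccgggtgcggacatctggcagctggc
MVD holds 3 such matches, starting 159, 120 and 85 bases before the start, SCD holds 2, starting 229 and 186 bases before, INSIG1 holds 1 at 170 and LSS 1 at 150. MVK and DHCR7 hold 5 and 2. Searched on both strands, CCAAT was in 23 of the 42 windows of the sterol and fatty acid lists that matched an entry, and in 33.0% of all 27305 windows of the same length. Among the genes past the threshold it was in 13 of the 20 matched windows of genes that rose and in 6 of the 15 of genes that fell. The core of the sterol response element in the form TCACNCCAC was in 1 of the 42 list windows, in 1 of the 20 (IER2) and in 0.875% of all windows. The letters TGATGNAAT, bound by ATF4 with C/EBP partners, were in none of the 42 list windows, none of the 20 windows of genes that rose and 0.916% of all windows. A match is a stretch of letters and not a measured binding site. No matches overlapped in the windows printed. No entry was matched for FDFT1, HIST1H3D, NEIL2 and WNT11 among the genes that rose, nor for CA2, CRIM1, FAM65B, GPRC5A, MYC, RIPK4, RP11-314B1.2 and SULF1 among those that fell.

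DDIT4, also called REDD1, which restrains the growth kinase complex mTORC1 and is a target of the stress factor ATF4, had the largest rise among genes that passed the threshold and had a mean of at least 50 reads. It had 3717, 3494 and 3753 reads in DMSO and 5251, 5674 and 6208 in FC-A, 1.56-fold higher (log2 fold change 0.64 ± 0.09 SE, adjusted p = 0.00659), and its call was lost only without DMSO library 2 (highest adjusted p 0.0592) among the 12 fits that each left out 1 library. It was the 1 gene that rose among 39 tested ATF4 targets and genes of amino acid supply; none fell, 30 were above 0, and the median log2 fold change was 0.06. The other members with the smallest p did not pass: ATF3, a stress-induced transcription factor, had 375, 394 and 345 reads in DMSO and 667, 549 and 523 in FC-A (0.64 ± 0.13, adjusted p = 0.0565), and DDIT3, the gene of CHOP, 349, 330.1 and 343 against 454, 407 and 455 (0.36 ± 0.08, adjusted p = 0.0722). CHAC1, which degrades glutathione, had 156, 166 and 161 against 253, 235 and 197 (0.49 ± 0.11, adjusted p = 0.0766), and SESN2, another restraint on mTORC1, had 237, 284 and 258 against 357, 336 and 318 (adjusted p = 0.0811). In these 4 genes, picked for their p, every FC-A library was above every DMSO library; the same held for 10 of the 39, against 7.81% of all tested genes. Of 25 FOXO targets and genes that restrain mTORC1, none passed, 15 were above 0 and the median was 0.07; the PI3K inhibitor gene PIK3IP1 stood at 0.41 (adjusted p = 0.333) and TXNIP, which binds thioredoxin, at 0.39 (adjusted p = 0.444).

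The unfolded protein response list (19 tested), the heat shock chaperones (13), the hypoxia and glycolysis genes (23) and the NRF2 targets (14) had no gene past the threshold. Their median log2 fold changes were 0.01, -0.08, 0.09 and -0.00. In the hypoxia and glycolysis list 20 of 23 genes were above 0; without replicate 3 of every group 15 of them were, with a median of 0.02.

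The 7 genes of the 14-3-3 proteins themselves were all tested and none passed the threshold. Their log2 fold changes ran from -0.10 (YWHAE, 95% interval -0.24 to 0.03) to 0.13 (SFN, 14-3-3 sigma, 95% interval -0.01 to 0.28), with a median of -0.07. Each of these intervals excludes a change of 1.5-fold in either direction.

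Genes that act on the cell cycle moved singly. CDKN1A, the gene of the cyclin-dependent kinase inhibitor p21, rose 1.34-fold, from 903, 838 and 903 reads in DMSO to 1108, 1187 and 1252 in FC-A (log2 fold change 0.42 ± 0.07 SE, adjusted p = 0.0183). MYC, a transcription factor that drives growth, fell 1.38-fold, from 898, 889.8 and 876 to 687, 652 and 599 (log2 fold change -0.46 ± 0.07 SE, adjusted p = 0.00877). RGCC, a regulator of cell cycle kinases first found as a complement-response gene, fell 1.61-fold, from 756, 733 and 655 to 525, 382 and 435 (log2 fold change -0.68 ± 0.09 SE, adjusted p = 0.00544). For RGCC the FC-A libraries were the more widely spread, with replicate 1 nearest to DMSO. The RGCC call held without any 1 library (highest adjusted p 0.0490). In a fit of the DMSO and FC-A libraries alone RGCC did not pass (adjusted p = 0.0721). The call on CDKN1A was lost without DMSO library 1, 2 or 3, or FC-A library 2 or 3 (highest adjusted p 0.131), and that on MYC without DMSO library 1 or 2, or FC-A library 2 (highest adjusted p 0.0649). CDKN2B, the p15 inhibitor, was at 2349, 2211 and 2195 in DMSO and 3070.3, 2582 and 2949 in FC-A and missed the threshold (0.35 ± 0.07, adjusted p = 0.0556). Around these genes, CDKN1A was the 1 of 17 tested p53 targets that passed, and the median of that list was 0.00. None of 22 DNA replication and G1/S genes and none of 21 mitosis genes passed, with medians of -0.09 and -0.03. In the replication list 2 of 22 genes were above 0, and without replicate 3 of every group 10 of 22 were, with a median of -0.02.

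Immediate early genes and feedback genes of the MAPK pathway gave 1 rise, IER2, and 1 fall, MYC, among 28 tested, with 11 above 0 and a median of -0.07. IER2, an immediate early nuclear protein, had 2588, 2695 and 2598 reads in DMSO and 2994, 3379 and 3388 in FC-A (log2 fold change 0.31 ± 0.06 SE, adjusted p = 0.0463). Its call was among the least firm, lost without DMSO library 1, 2 or 3, FC-A library 2 or 3, IFNa library 1 or 2, or Combination library 1 or 2 (highest adjusted p 0.225). CIC, the repressor that holds down genes induced by the MAPK pathway, rose 1.237-fold, from 2505, 2494 and 2395 to 2953, 3159 and 3039 (log2 fold change 0.31 ± 0.05 SE, adjusted p = 0.0203), and was lost without DMSO library 1, 2 or 3, or FC-A library 2 (highest adjusted p 0.132). JUNB, an AP-1 subunit, was at 2319, 2346 and 2115 against 3061, 3192 and 2755 (adjusted p = 0.0833) and FOS at 327, 306 and 375 against 399, 486 and 604 (adjusted p = 0.378); neither passed, although no FC-A library overlapped the DMSO range.

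PDE4B, a phosphodiesterase that breaks down cyclic AMP, fell 1.58-fold, from 249, 255 and 289 reads in DMSO to 161, 163 and 174 in FC-A (log2 fold change -0.66 ± 0.09 SE, adjusted p = 0.00471), and passed in every alternative fit. It was the 1 call among 19 tested genes of cyclic AMP signalling and CREB targets, whose median log2 fold change was -0.05. Its relative PDE4A was at 267, 255 and 268 against 216, 235 and 190.4 (-0.31 ± 0.10, adjusted p = 0.323), and SIK1, a kinase gene that CREB induces, at 5687, 5701 and 4928 against 7676, 6435 and 5723 (0.27 ± 0.09, adjusted p = 0.344).

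**Figure D3:**
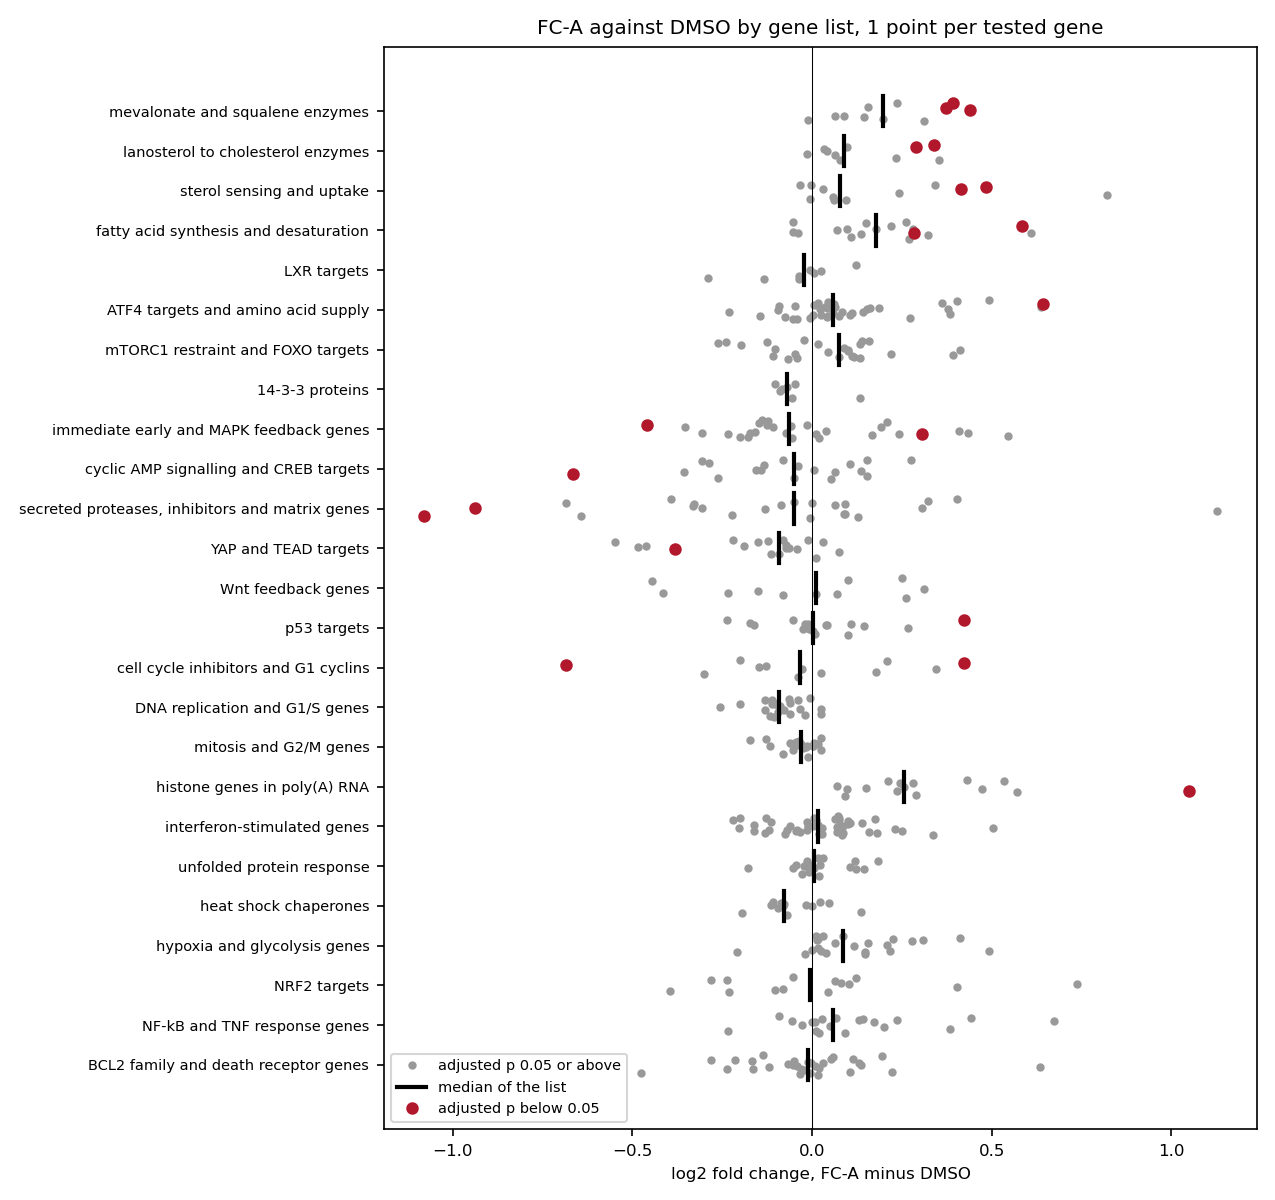
Each point is 1 tested gene of the list named at the left, placed by its log2 fold change, FC-A minus DMSO (horizontal axis); red points have an adjusted p below 0.05 and the black bar is the median of the list. The medians run from -0.09 (DNA replication and G1/S genes; YAP and TEAD targets) to 0.26 (histone genes), and red points are most numerous in the sterol and fatty acid lists.

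Among genes that passed the threshold and had a mean of at least 50 reads, secreted proteases had the 2 largest falls. CPA4, a secreted carboxypeptidase, had 3599, 3611 and 3783 reads in DMSO and 1834, 1692 and 1671 in FC-A, 2.12-fold lower (log2 fold change -1.08 ± 0.07 SE, adjusted p = 3.77e-06). MMP10, the matrix metalloproteinase stromelysin-2, had 379, 345 and 298 against 173, 187 and 170.1, 1.92-fold lower (log2 fold change -0.94 ± 0.11 SE, adjusted p = 0.00231). Both passed in every alternative fit, and the FC-A libraries of each were closely grouped. They were the 2 calls among 23 tested proteases, protease inhibitors and matrix genes; no member rose, 10 were above 0 and the median was -0.05. ADAMTS1, a secreted protease that cleaves proteoglycans, was at 2416, 2210.0 and 2181 in DMSO and 1849.7, 1806 and 1758 in FC-A (-0.33 ± 0.07, adjusted p = 0.0547). MMP1, interstitial collagenase, was at 87.1, 81.3 and 96.3 against 58.8, 49.3 and 60.7 (-0.64 ± 0.14, adjusted p = 0.0838). MMP9, gelatinase B, lay the other way and did not pass, at 0.40 ± 0.13 (adjusted p = 0.351). The matrix side of this list did not pass, but COL16A1, a fibril-associated collagen outside it, rose 1.28-fold, from 2144, 2063 and 2026 to 2715, 2585 and 2694 (log2 fold change 0.36 ± 0.07 SE, adjusted p = 0.0342). That call was lost without DMSO library 1, 2 or 3, FC-A library 1, 2 or 3, IFNa library 1, or Combination library 1 or 2 (highest adjusted p 0.187).

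The upstream windows of CPA4 and MMP10 are shown because these genes had the 2 largest falls among genes past the threshold with at least 50 reads. They were chosen after their values were seen, and also because their windows hold the letters marked. The matches in these 2 windows are therefore shown as sequence only and not as a test. Capitals mark the letters TGANTCA, the element bound by AP-1 (FOS and JUN dimers), CCAAT is left in lower case, and the sequences are the 250 bases before the RefSeq start on GRCh38.p14. CPA4 lies at chr7:130292911-130293160, plus strand, and MMP10 at chr11:102780629-102780878, minus strand.
CPA4: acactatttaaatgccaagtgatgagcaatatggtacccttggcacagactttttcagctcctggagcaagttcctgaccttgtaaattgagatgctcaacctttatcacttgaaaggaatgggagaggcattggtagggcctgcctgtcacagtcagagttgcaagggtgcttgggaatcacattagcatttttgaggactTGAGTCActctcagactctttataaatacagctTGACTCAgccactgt
MMP10: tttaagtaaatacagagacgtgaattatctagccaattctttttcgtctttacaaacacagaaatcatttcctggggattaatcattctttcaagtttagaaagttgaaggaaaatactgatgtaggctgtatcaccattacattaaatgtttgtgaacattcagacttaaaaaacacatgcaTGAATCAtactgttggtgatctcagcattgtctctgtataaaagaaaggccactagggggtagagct
The CPA4 window holds 2 matches, starting 48 and 15 bases before the start, and the MMP10 window 1, starting 67 bases before. These letters, which read as a match on both strands, were in 3 of the 15 matched windows of genes that fell (CPA4, MMP10 and SCEL), in none of the 20 of genes that rose and in 6.6% of all windows.

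Of the targets of YAP and TEAD, 19 were tested; CRIM1 fell, none rose, 3 were above 0 and the median was -0.09. CRIM1, a transmembrane protein that binds bone morphogenetic proteins, fell 1.303-fold, from 14355, 14650.4 and 14486 to 11299, 11301 and 10774 (log2 fold change -0.38 ± 0.07 SE, adjusted p = 0.0437), a call lost without DMSO library 1, 2 or 3, FC-A library 2 or 3, IFNa library 1, or Combination library 1 or 2 (highest adjusted p 0.242). NT5E, the ecto-5'-nucleotidase CD73, was at 89.8, 97.6 and 83.0 against 72.2, 53.1 and 68.1 (-0.49 ± 0.13, adjusted p = 0.19). CTGF, a matricellular protein, was at 6150.3, 5737 and 4802 against 5165, 3747 and 3353 (-0.46 ± 0.15, adjusted p = 0.34), with groups that overlapped. Among 11 Wnt feedback genes none passed and the median was 0.01, while WNT11, a ligand of that family outside the list, rose 1.48-fold, from 1681, 1396 and 1268 to 2102, 2163 and 2125 (log2 fold change 0.57 ± 0.11 SE, adjusted p = 0.0483). That call was lost without DMSO library 2 or 3, FC-A library 1, 2 or 3, IFNa library 1 or 2, or Combination library 2 or 3 (highest adjusted p 0.254).

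Scaffold, adhesion and cytoskeletal genes were among the other falls. CLIC5, a chloride intracellular channel protein tied to the actin cortex, fell 1.70-fold, from 563, 566 and 506 reads to 318, 306 and 336 (log2 fold change -0.77 ± 0.11 SE, adjusted p = 0.00659). IQGAP2, a scaffold that binds calmodulin and the GTPases RAC1 and CDC42, fell 1.57-fold, from 1257, 1358 and 1338 to 838, 837 and 845 (log2 fold change -0.65 ± 0.06 SE, adjusted p = 0.000327). PCDH19, a protocadherin, fell 1.501-fold, from 2501, 2659 and 2552 to 1874, 1750.4 and 1528 (log2 fold change -0.59 ± 0.10 SE, adjusted p = 0.0203). The 3 FC-A libraries of IQGAP2 were nearly equal, whereas those of PCDH19 were spread, with replicate 3 the lowest. IQGAP2 passed in every alternative fit, CLIC5 was lost without DMSO library 1 or 2, or FC-A library 2 (highest adjusted p 0.0592), and PCDH19 without DMSO library 1, 2 or 3, or FC-A library 2 or 3 (highest adjusted p 0.14).

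KLHL29, a Kelch-domain protein, fell 1.49-fold, from 1613, 1595 and 1609 to 1044, 1123 and 1069 (log2 fold change -0.57 ± 0.05 SE, adjusted p = 0.000295). KLHL13, a Kelch adaptor of cullin-3 ubiquitin ligases, fell 1.34-fold, from 2602, 2731 and 2646 to 2086, 1935 and 1918 (log2 fold change -0.43 ± 0.05 SE, adjusted p = 0.00297). Both passed in every alternative fit, and the 3 DMSO libraries of KLHL29 were nearly equal. KLHDC8B, another Kelch-domain gene, moved the other way and rose 1.38-fold, from 671, 628 and 696 to 842, 887 and 1031 (log2 fold change 0.46 ± 0.09 SE, adjusted p = 0.0437), and was lost without DMSO library 1, 2 or 3, FC-A library 2 or 3, IFNa library 1 or 2, or Combination library 1 or 2 (highest adjusted p 0.254). SYT1, the calcium sensor of vesicle release, fell from 902, 845 and 863 to 669, 638 and 666 (log2 fold change -0.40 ± 0.07 SE, adjusted p = 0.0315), lost without DMSO library 1, 2 or 3, or FC-A library 2 or 3 (highest adjusted p 0.161). SULF1, which trims sulfate from heparan sulfate outside the cell, fell 1.53-fold, from 365, 319 and 363 to 248, 222 and 213 (log2 fold change -0.61 ± 0.10 SE, adjusted p = 0.0203), lost without DMSO library 1 or 3, or FC-A library 2 or 3 (highest adjusted p 0.124). CHST2, which adds sulfate to N-acetylglucosamine, rose 1.33-fold, from 1746, 1654 and 1698 to 2028, 2388 and 2390.4 (log2 fold change 0.41 ± 0.07 SE, adjusted p = 0.0296), lost without DMSO library 1, 2 or 3, FC-A library 2 or 3, or IFNa library 1 (highest adjusted p 0.182). The sulfotransferase and the sulfatase thus moved in opposite directions, each with groups apart.

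The falls of CA2, RIPK4, KRT4, SCEL and GPRC5A are given together; these genes were grouped after their values were seen and belong to none of the lists. CA2, a cytosolic carbonic anhydrase, had 24129, 24631 and 24686 reads in DMSO and 19148, 19189 and 18857 in FC-A (log2 fold change -0.36 ± 0.04 SE, adjusted p = 0.00121). RIPK4, a kinase needed for keratinocyte differentiation, had 8530.2, 8849.7 and 9132 against 6505, 7008 and 7005 (log2 fold change -0.37 ± 0.05 SE, adjusted p = 0.00236). Both passed in every alternative fit. KRT4, a keratin of lining squamous epithelia, had 14975, 15437 and 15136 against 10504, 12703 and 12374 (log2 fold change -0.36 ± 0.06 SE, adjusted p = 0.0315), with replicate 1 the lowest. SCEL, sciellin, a precursor of the cornified envelope, had 2493, 2418 and 2488 against 2037, 1901 and 1918 (log2 fold change -0.34 ± 0.06 SE, adjusted p = 0.0342). GPRC5A, an orphan receptor induced by retinoic acid, had 5953, 6289 and 5862 against 5124, 5089.8 and 5050.2 (log2 fold change -0.25 ± 0.04 SE, adjusted p = 0.0342). The calls on the last 3 each depended on several libraries: KRT4 was lost without DMSO library 1, 2 or 3, or IFNa library 1 (highest adjusted p 0.182) and with quantile normalization, SCEL without DMSO library 1, 2 or 3, FC-A library 2 or 3, IFNa library 1, or Combination library 2 (highest adjusted p 0.175) and GPRC5A without DMSO library 1, 2 or 3, FC-A library 2 or 3, IFNa library 1, or Combination library 1 or 2 (highest adjusted p 0.254).

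IL20RA, IL1R1 and PELI1 fell as well. IL20RA, a receptor chain for cytokines of the interleukin-20 family, fell 1.42-fold, from 529.7, 509.9 and 512 to 400.1, 338 and 353 (log2 fold change -0.51 ± 0.08 SE, adjusted p = 0.0177). IL1R1, the signalling receptor of interleukin-1, fell 1.26-fold, from 3249, 3405 and 3407 to 2609, 2552 and 2824 (log2 fold change -0.33 ± 0.06 SE, adjusted p = 0.0491). PELI1, a ubiquitin ligase of Toll-like and interleukin-1 receptor signalling, fell 1.18-fold, from 3322, 3498 and 3375 to 2914, 2823 and 2871 (log2 fold change -0.24 ± 0.05 SE, adjusted p = 0.0379). The IL20RA call was lost without DMSO library 1, 2 or 3, or FC-A library 2 or 3 (highest adjusted p 0.103), the IL1R1 call without DMSO library 1, 2 or 3, FC-A library 1 or 2, IFNa library 1, or Combination library 1 or 2 (highest adjusted p 0.254), and the PELI1 call without DMSO library 1, 2 or 3, FC-A library 2 or 3, IFNa library 1 or 2, or Combination library 1 or 2 (highest adjusted p 0.254). IL1R1 also did not pass with TMM scaling, quantile normalization, no filter on low values or edgeR (adjusted p = 0.061), and passed in 10 of the 24 alternative fits. None of 20 NF-kB and TNF response genes passed; 15 were above 0 and the median was 0.06, with TNFAIP2 at 0.24 (adjusted p = 0.22) and the chemokine CXCL3 at 0.67 (adjusted p = 0.31). None of the 46 tested interferon-stimulated genes passed, 28 were above 0 and the median was 0.02.

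BCL2-family and death receptor genes had no call among 31 tested, 13 above 0 and a median of -0.01. BMF, a BH3-only protein that binds and neutralizes prosurvival BCL2 proteins, came closest, with 2911, 2578 and 2928 reads in DMSO and 3864, 4299.6 and 4936 in FC-A (0.63 ± 0.13, adjusted p = 0.0624). BID, the BH3-only protein cleaved by caspase-8, was at -0.21 ± 0.06 (adjusted p = 0.161), and the death receptor gene FAS at -0.24 ± 0.09 (adjusted p = 0.449).

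Chromatin, DNA and RNA genes were among the remaining rises. HIST1H3D, a histone H3 gene, had the largest rise of the genes past the threshold, but from few reads: 27.2, 21.05 and 20.02 in DMSO and 42.8, 49.3 and 51.5 in FC-A (log2 fold change 1.05 ± 0.20 SE, adjusted p = 0.0449). Its coding sequence is nearly the same as that of other H3 genes, so reads may be shared, and its call was lost without DMSO library 1, 2 or 3, FC-A library 2 or 3, IFNa library 1 or 2, or Combination library 1, 2 or 3 (highest adjusted p 0.246). It passed in 9 of the 22 alternative fits that gave it an adjusted p; DESeq2 gave it none. All 15 histone genes on the list were above 0, with a median of 0.26, and 1 passed; without replicate 3 of every group the median was 0.14. HIST2H2BE stood at 0.47 (adjusted p = 0.377) and HIST1H2BD at 0.43 (adjusted p = 0.424). DNMT3B, a DNA methyltransferase that sets new marks, rose from 1123, 1139 and 1184 to 1386, 1451 and 1386 (log2 fold change 0.29 ± 0.05 SE, adjusted p = 0.0326), and NEIL2, a DNA glycosylase of base excision repair, from 1484, 1403 and 1533 to 1776, 1815 and 1785 (log2 fold change 0.28 ± 0.05 SE, adjusted p = 0.0395). These 2 calls were lost without DMSO library 1, 2 or 3, FC-A library 2 or 3, or IFNa library 1 (highest adjusted p 0.182) and without DMSO library 1, 2 or 3, FC-A library 2 or 3, IFNa library 1 or 2, or Combination library 1 or 2 (highest adjusted p 0.254), respectively.

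KLF7, a Krüppel-like transcription factor, rose 1.37-fold, from 452, 460.2 and 485 to 666, 573 and 683 (log2 fold change 0.46 ± 0.08 SE, adjusted p = 0.0342), and was lost without DMSO library 1, 2 or 3, FC-A library 1 or 3, IFNa library 1, or Combination library 2 (highest adjusted p 0.182). SAMD4B, an RNA-binding protein of the Smaug family, rose from 18189, 18544 and 17959 to 21464, 21631 and 21441 (log2 fold change 0.24 ± 0.04 SE, adjusted p = 0.0265), the smallest rise that passed. It was lost without DMSO library 1, 2 or 3, FC-A library 2 or 3, or IFNa library 1 (highest adjusted p 0.143). CEP164, a protein of the centriole's distal appendages, rose from 1202, 1111 and 1168 to 1425, 1405 and 1428 (log2 fold change 0.29 ± 0.05 SE, adjusted p = 0.0342), lost without DMSO library 1, 2 or 3, FC-A library 2 or 3, IFNa library 1, or Combination library 2 (highest adjusted p 0.242). IER5L, a relative of the immediate early gene IER5, rose from 3544, 3527 and 3448 to 4112, 4803 and 4462 (log2 fold change 0.34 ± 0.06 SE, adjusted p = 0.0373), lost without DMSO library 1, 2 or 3, FC-A library 2 or 3, IFNa library 1 or 2, or Combination library 2 (highest adjusted p 0.192). SRGAP2, a GTPase-activating protein, rose from 2730.0, 2686 and 2618 to 3134, 3214 and 3314 (log2 fold change 0.27 ± 0.04 SE, adjusted p = 0.0136), lost without DMSO library 1, 2 or 3, or FC-A library 2 (highest adjusted p 0.104). SRGAP2 has near-identical partial copies in the human genome, so the assignment of its reads is uncertain.

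The 2 remaining falls were in poorly expressed transcripts. FAM65B, an inhibitor of a small GTPase, went from 21.8, 26.8 and 24.8 reads to 13.4, 13.5 and 8.28 (log2 fold change -1.03 ± 0.17 SE, adjusted p = 0.0203), lost without DMSO library 1, 2 or 3 (highest adjusted p 0.131) and not called by edgeR. RP11-314B1.2, a long intergenic non-coding RNA in the reference annotation, went from 202, 183 and 145 to 112, 101 and 77.3 (log2 fold change -0.86 ± 0.15 SE, adjusted p = 0.0315), lost without DMSO library 1 or 2, FC-A library 2 or 3, or IFNa library 1 (highest adjusted p 0.182). Of the 47 changed genes matched to the annotation, 46 code for proteins.

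The same agent was also given with IFNa, and the Combination against IFNa gives the FC-A difference in 6 libraries that do not enter the first difference. The 2 comparisons share the estimate of the spread, so these 6 libraries still bore on which genes passed. A gene with a small shared spread is favoured in both. Genes chosen for a large difference in the first tend to a smaller one in the second for that reason alone. Of the 48 genes, 45 had the same direction in the second comparison, 23 of the 25 that rose and 22 of the 23 that fell, where 64.5% of all tested genes had the same direction in both. The exceptions included CEP164 and FAM65B. In 16 the difference also passed in the second comparison, in the same direction, where 0.331% of all genes passed in either direction. None passed in the other direction. The count of 16 was 5 in a fit of the IFNa and Combination libraries alone. It was 3 without IFNa replicate 1, 5 without IFNa replicate 2, 8 without Combination replicate 1, and 9 without Combination replicate 2, DMSO replicate 1 or FC-A replicate 2.

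Those that passed again with IFNa were mostly genes that fell. They were 12 of the 23 falls (CPA4, CLIC5, RGCC, IQGAP2, PCDH19, KLHL13, SYT1, CRIM1, RIPK4, CA2, SCEL and GPRC5A) and 4 of the 25 rises (DDIT4, CDKN1A, CIC and SAMD4B). CLIC5 had 458, 429 and 364 reads with IFNa and 211, 258 and 198 with both agents (-0.91 ± 0.11, adjusted p = 0.00358). DDIT4 had 2648, 2501 and 3225 with IFNa and 4868, 4955 and 5746 with both (0.90 ± 0.09, adjusted p = 0.00188). PCDH19 had 3027, 3621 and 2783 against 1694, 2018 and 1999.8 (-0.72 ± 0.10, adjusted p = 0.00814). These 3 were the genes of the 16 whose FC-A difference was more than 0.10 larger, on the log2 scale, in the presence of IFNa. The Combination difference minus the FC-A difference was 0.26 for DDIT4 (95% interval -0.02 to 0.53). It was -0.14 for CLIC5 (-0.47 to 0.19) and -0.13 for PCDH19 (-0.43 to 0.16). Each interval spans no change, so a larger FC-A difference with IFNa is not shown for these genes. CPA4 had 5759, 5334 and 6274 with IFNa and 3595, 3767 and 4173 with both (-0.59 ± 0.07, adjusted p = 0.00292), so the Combination libraries stood near the level of DMSO alone. CDKN1A had 3245, 3146 and 3581 against 4567, 4549.8 and 4027 (0.40 ± 0.07, adjusted p = 0.0273), nearly the same log2 difference as without IFNa from a level several times higher. RGCC had 1379, 1405 and 1364 against 879, 883 and 833 (-0.68 ± 0.09, adjusted p = 0.00814), likewise from a higher level. Of the listed genes that did not pass for FC-A alone, 4 passed with IFNa, namely BMF (427, 393 and 452 against 728, 619 and 971, 0.84, adjusted p = 0.0151), CHAC1 (404, 467 and 511 against 650.1, 745 and 712, 0.61, adjusted p = 0.031) and, downward, ADAMTS1 (-0.43, adjusted p = 0.0133) and MMP1 (-0.89, adjusted p = 0.0199).

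None of the 9 sterol and fatty acid genes passed with IFNa. FDFT1 had 4034, 4289.9 and 4107 reads with IFNa and 4553, 4410.1 and 4373 with both agents (0.10 ± 0.04, adjusted p = 0.35). LSS had 3365, 3798 and 3628 against 3794, 3804 and 3738 (0.07 ± 0.05, adjusted p = 0.522). SCD had 11425, 12154 and 11365 against 13569.5, 13513 and 15966 (0.30 ± 0.07, adjusted p = 0.116), and MVD 939, 983 and 959 against 1142, 1133 and 1075 (0.22 ± 0.05, adjusted p = 0.116). Over the 50 tested genes of the 4 lists, 32 were above 0 with IFNa, against 51.4% of all tested genes, and the median was 0.04. The interaction, the Combination difference minus the FC-A difference, was below 0 in 39 of the 50, against 47.8% of all tested genes. As the lists were chosen with earlier results of these data known, this count is a description only.

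Whether the FC-A difference itself changed with IFNa was tested by the interaction, and limma called none of the 15990 genes (0%) and so none of the 48. At an unadjusted p below 0.05 there were 627 genes in all and 21 of the 48. The interaction contains the FC-A against DMSO difference by which the 48 were chosen. That choice alone favours small p-values among them and intervals away from 0. The count of 21 and the intervals below are therefore descriptions and not a test. The lowest adjusted p among the 48 was 0.593, which CPA4, FAM65B and KLHL29 shared. The interaction was 0.49 for CPA4 (95% interval 0.29 to 0.70), 0.41 for KLHL29 (0.25 to 0.57) and 1.36 for FAM65B (0.84 to 1.87), on the log2 scale. DESeq2 on the recovered reads called 3 of the 48, among them CPA4 (adjusted p = 0.0316) and KLHL29 (0.0224), and edgeR called none. PDE4B had 376, 412 and 399 reads with IFNa and 337, 381 and 392 with both (-0.10 ± 0.09, adjusted p = 0.638), and its interaction of 0.56 (0.29 to 0.84) did not pass. FAM65B, near the minimum without IFNa, had 401, 388 and 475 with IFNa and 520.3, 532 and 535 with both.

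**Figure D4:**
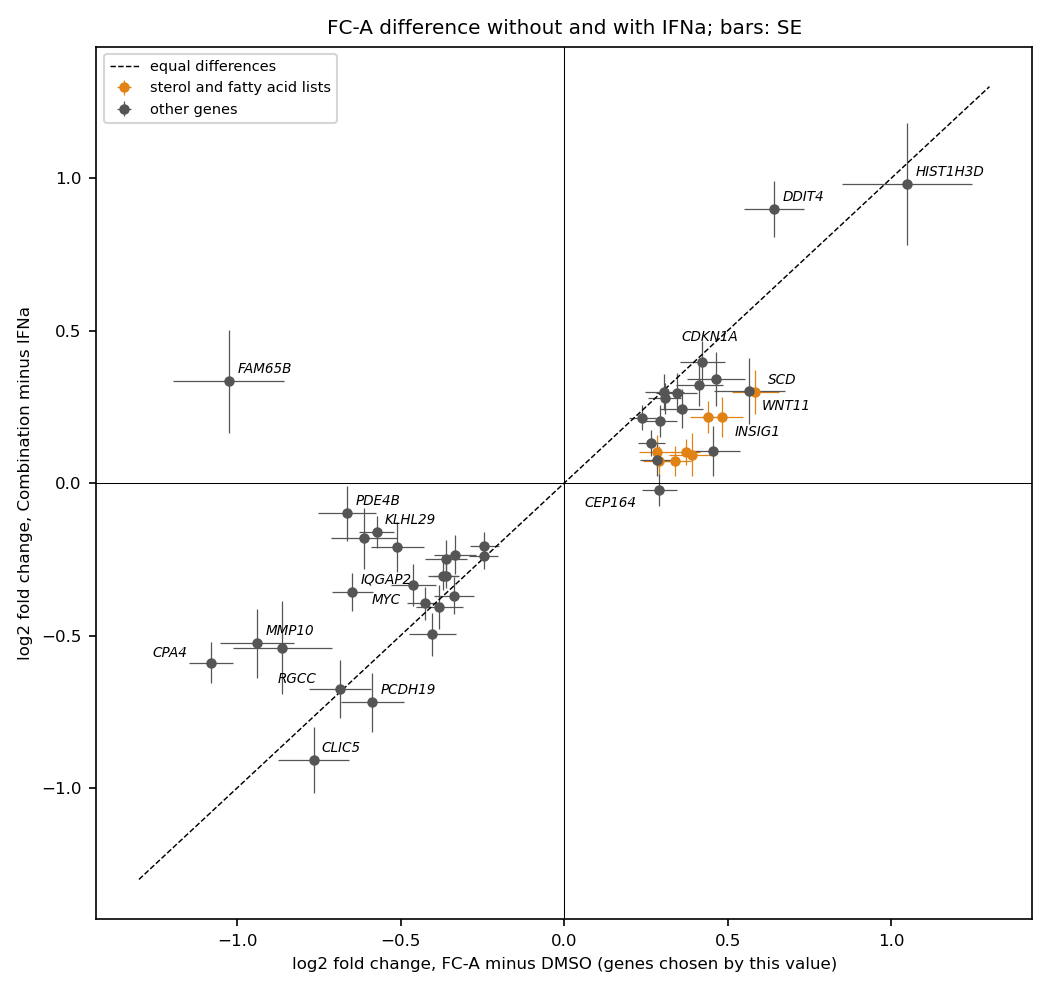
Log2 fold change of FC-A against DMSO (horizontal axis, the value by which the 47 genes drawn were chosen) and of the Combination against IFNa (vertical axis); bars are standard errors and the dashed line marks equal differences. CEP164 and FAM65B fall outside the quadrants of equal sign, the orange sterol and fatty acid genes lie under the line, and DDIT4 and CLIC5 lie farther from 0 with IFNa.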

How the data were processed

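Poly(A) RNA libraries were made with a stranded TruSeq kit from 100 ng of RNA, per the labels' protocols. Per the submitters' processing notes, hg19, STAR 2.7.3, bcl2fastq 2.20, FastQC and DESeq2 1.24.0 were used; no label names the counting program or annotation. The deposited values are a signal that is never negative, read counts per gene scaled per library by the authors. In all 12 libraries 100% of values came out as whole reads (within 0.01) when divided by the library's step, so depths and a count test could be recovered. The authors' deposited fold changes and p-values were not used.

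Each gene with a mean of at least 10 over 12 libraries was fitted as log2(value + 1) in limma 3.58.1 (R 4.3.3), with 4 group means and a variance trend. Tests were two-sided and adjusted by Benjamini-Hochberg over all 15990 genes, with a threshold of 0.05. Fold changes are on that log2 scale, which understates the change of low genes. Standard errors come from the shared spread and 95% intervals from the same fit. Alternatives were pseudocounts of 0.5 and 8, other minimum means (none, 50), TMM and quantile scaling, no variance trend, the 6 compared libraries alone, a replicate block, each library left out, replicate 3 left out, edgeR 4.0.16 and DESeq2 1.42.0 on recovered reads. The script was tested on simulated data.

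Members, gene lists and tests were chosen with earlier results of these data known. Genes past the threshold were named, except for 1 that is not reported here by name and is left out of the figures that name genes but not of the counts or lists, with library values for the 12 largest changes in each direction with a mean of at least 50 in the 6 libraries, and listed genes with the smallest p; others were named after their values were seen, as were the groupings of genes outside the 29 lists. Of the listed symbols, 7 were not found by name in the deposited table, and others were found but lay below the minimum mean and were not tested. Promoter windows came from RefSeq (GRCh38.p14), a build other than that of the counts, and were matched by symbol. No set test was run.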

Additional observations from a re-analysis of the deposited data

How the results depend on the processing

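None of the 48 genes, and none of the 45 others for which the alternatives were run, changed direction under any of them. Several alternatives cannot move the log2 fold change, so the direction there was fixed in advance. These were no filter on low values, a minimum mean of 50, no variance trend, the compared libraries alone and the replicate block. So were the fits without 1 IFNa or Combination library. Of 1150 values of the 48 genes under the alternatives, 866 kept their side of the threshold and 284 lost it; of 1079 values of the others, which had not passed, 952 still did not and 127 did. The total of 48 genes, with 25 higher and 23 lower, became 20, 6 and 14 without the variance trend, 171, 87 and 84 with DESeq2, and 134, 60 and 74 without replicate 3 of every group. Fitting the 6 compared libraries alone gave 26, of which 10 were higher. The fit without the trend shared 16 genes with the 48, and the fit of 6 libraries 22. Leaving out 1 library at a time gave 16 to 119 genes in all, 6 to 53 higher and 10 to 66 lower. The causes were not tested. The 16 genes that also passed with IFNa became 5 without the trend, 5 in the fit of the compared groups only, 28 without replicate 3 and 26 with DESeq2, and ran from 3 to 24 with 1 library left out; genes with a called interaction ran from 0 to 0 there and were 3 with DESeq2. Replicate numbers are shared between the groups, but nothing says that they mark a shared culture or day. The deviations of same-numbered DMSO and FC-A libraries from their group means correlated at 0.0794, 0.0203 and 0.223 over the tested genes. Those of unlike-numbered libraries correlated at -0.213 to 0.146. The main fit did not pair the libraries, and whether the numbers mark pairs was not tested. DMSO replicates 1 and 3 correlated best with their own number, and DMSO replicate 2 with FC-A replicate 1 (0.146). With the replicate number as a block, 289 genes passed (145 higher, 144 lower), among them all 48; 33 passed again with IFNa, and 1 interaction among the 48 passed. The share of calls that were higher was 52.1%, and 50.9% to 56.3% under TMM, quantile, edgeR and DESeq2 scaling. Genes with few reads, such as FAM65B and HIST1H3D, are the ones whose precision the depth limits most.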

Other observations

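A further 65 genes lay just short of the threshold for FC-A against DMSO, with a limma adjusted p from 0.05 to 0.1, of which 29 were higher and 36 lower with FC-A. In the Combination against IFNa, 63 of the 65 had the same direction, against 64.5% of all tested genes. There 10 of the 65 passed, against 0.331% of all tested genes. Both comparisons share the estimate of the spread, so a gene with a small spread is favoured in each. Those named here were picked after their values were seen and are given as values only. Several are epithelial genes. FLG, filaggrin of the cornified layer, had 3048, 3079 and 3609 normalized reads in the DMSO libraries and 2182.02, 2339 and 2730.0 in the FC-A libraries (log2 fold change -0.43 ± 0.08 SE, adjusted p = 0.0519), and passed with IFNa (-0.73, adjusted p = 0.00292). The keratins KRT13 and KRT23 stood at -0.51 ± 0.10 (adjusted p = 0.0565) and -0.39 ± 0.08 (adjusted p = 0.0722), and at -0.08 and -0.07 with IFNa, where neither passed.

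Surface receptors and ligands appeared among the lower genes as well. F2R, the thrombin receptor, had 1799, 1695 and 1739 reads in DMSO and 1388, 1249 and 1438 in FC-A (-0.36 ± 0.08, limma adjusted p = 0.0722). The potassium channel KCNK2 had 750.1, 734 and 799.97 in DMSO and 685, 563 and 546 in FC-A (-0.35 ± 0.08, adjusted p = 0.0873). SEMA3C, a secreted semaphorin, had 1984, 1805 and 1955 in DMSO and 1615, 1428 and 1564 in FC-A (-0.32 ± 0.06, adjusted p = 0.0536). These 3 genes passed with IFNa, at -0.53, -0.59 and -0.44 (adjusted p = 0.00992, 0.00814 and 0.00959). BMPER, a secreted regulator of bone morphogenetic proteins, was also lower (-1.10 ± 0.25, adjusted p = 0.0838) and passed with IFNa (-1.29, adjusted p = 0.0434). On the higher side were HES1, the Notch target (0.28 ± 0.06, adjusted p = 0.0697, and 0.33 with IFNa, adjusted p = 0.0347), ULK1, the kinase that starts autophagy (0.32 ± 0.07, adjusted p = 0.0904), and SLC25A1, the mitochondrial citrate carrier that supplies acetyl-CoA for lipid synthesis (0.22 ± 0.05, adjusted p = 0.0722).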
